A study of Mus musculus with 1470 samples.

Results

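MHC class II molecules present peptides from endocytosed protein to CD4+ T cells, and 10 genes of that pathway were followed across the cells of the mouse liver. The genes were H2-Aa, H2-Ab1 and H2-Eb1, Cd74, H2-DMa, H2-DMb1, H2-DMb2, H2-Oa, H2-Ob and Ciita, chosen by symbol from the 14915 gene rows of the expression table, and all 10 were present with 1 row each. The cells were liver non-parenchymal cells (NPCs) of male wild-type C57BL/6J mice, profiled with Smart-seq2, a full-length single-cell RNA-seq method that has no molecular identifiers. Of 1470 cells, 718 came from 3 mice on a normal chow diet (ND1 to ND3) and 752 from 3 mice kept for weeks on a high-fat diet (HFD1 to HFD3), and the mouse was the replicate. No group carried a transgene or a deletion. All mice were of a strain that lacks a functional H2-Ea chain, so H2-Eb1 has no partner to form an I-E molecule with.

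In this pathway the H2-Aa and H2-Ab1 chains pair in the endoplasmic reticulum with the invariant chain, encoded by Cd74, which blocks the groove and steers the complex to endosomes. There the invariant chain is cut down to a short peptide, and H2-DM, made of an alpha chain (H2-DMa) and a beta chain (H2-DMb1 or H2-DMb2), exchanges it for antigenic peptides. H2-O, made of H2-Oa and H2-Ob, binds H2-DM and restrains it, and Ciita is the coactivator that switches the genes on. B cells, dendritic cells and macrophages are the classical presenting cells, and the liver adds Kupffer cells (KCs), its resident macrophages, and sinusoidal endothelial cells, which are known to present antigen.

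The 8 H2 genes lie together on chromosome 17 (GRCm38), between 34092379, the start of H2-Oa, and 34316674, the end of H2-Eb1, a span of 224 kb. Class II promoters carry conserved elements, among them an X box bound by the RFX complex and a Y box bound by NF-Y, on which Ciita is assembled. RefSeq promoter windows (250 bases before to 50 after an annotated start, GRCm38.p6) were at hand for 7 of the 10 genes and were searched on both strands for the letters ACNGATG, as a core of the X box, and GATTGG, the Y box. The Y box letters were found for all 7 genes, against 16.11% of 32851 promoter windows of all genes. The X core letters were found for 5 of 7 (9.851% of all windows), and both in the order X then Y with 5 to 40 bases between them for 3 of 7, namely H2-Eb1, H2-DMb1 and H2-DMb2 (0.1126% of all windows). The promoters of these 3 genes are shown with those of the H2-O pair and H2-Aa, since H2-DMb1 and H2-DMb2 carried the same arrangement and, as described below, had different patterns across cells. Each sequence runs 5′ to 3′ on the strand of the gene from 140 to 11 bases before its annotated start, and capitals mark matches to either motif on either strand (CCAATC is the Y box read on the other strand).
H2-Eb1, chr17:34305727-34305856, plus strand: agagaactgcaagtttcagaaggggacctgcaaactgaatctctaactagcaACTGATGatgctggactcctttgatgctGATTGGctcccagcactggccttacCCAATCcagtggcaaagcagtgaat
H2-DMb1, chr17:34153051-34153180, plus strand: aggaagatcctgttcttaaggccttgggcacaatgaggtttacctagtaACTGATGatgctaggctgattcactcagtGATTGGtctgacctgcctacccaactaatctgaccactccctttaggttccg
H2-DMb2, chr17:34145109-34145238, plus strand: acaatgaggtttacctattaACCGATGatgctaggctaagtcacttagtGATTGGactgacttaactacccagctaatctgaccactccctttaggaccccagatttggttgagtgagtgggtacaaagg
H2-Oa, chr17:34092239-34092368, plus strand: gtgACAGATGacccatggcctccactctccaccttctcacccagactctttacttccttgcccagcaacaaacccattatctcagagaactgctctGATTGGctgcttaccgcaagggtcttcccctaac
H2-Ob, chr17:34238765-34238894, plus strand: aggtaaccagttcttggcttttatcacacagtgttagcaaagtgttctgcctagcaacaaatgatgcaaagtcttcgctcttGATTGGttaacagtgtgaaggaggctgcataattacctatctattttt
H2-Aa, chr17:34287834-34287963, minus strand: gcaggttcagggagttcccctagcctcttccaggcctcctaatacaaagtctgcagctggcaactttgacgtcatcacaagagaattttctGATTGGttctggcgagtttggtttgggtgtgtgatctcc
The X core letters began 88 bases before the start in H2-Eb1, 91 in H2-DMb1 and farther away in H2-DMb2 and H2-Oa. In H2-Oa the Y box began 44 bases before the start, and the stretch between the motifs was longer than the limit. In H2-Aa the X core letters lay on the opposite strand, outside the stretch shown. The 2 motifs did not overlap in any of these genes. These are matches of letters and show neither binding nor a cause. A promoter without a match may carry an X box of other letters.

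Cells were grouped into classes by clustering on 1000 variable genes that left out the 10 class II genes, and a class was named from lists of markers that held none of them. Of all cells, 30.9% were endothelial-like, 21.5% T-cell-like, 17.1% B-cell-like and 17.01% KC-like, with at least 22 cells of each of these classes in every mouse. A further 51 cells were MoMac/cDC-like (monocyte-derived macrophages and conventional dendritic cells, which clustered together), 42 NK-like, 37 hepatocyte-like, 31 erythrocyte-like, 21 pDC-like (plasmacytoid dendritic) and 17 neutrophil-like. The clusters were made from the same cells that were then compared, and genes that vary together with the class II genes took part in them. Estimated reads per cell had medians from 87314 (HFD2) to 201809 (HFD1) by mouse, and the median cell detected between 1595.5 (HFD2) and 3163 (HFD3) genes. In a cell of median depth (122347 estimated reads) 1 read gave an RPKM between 1.36 (Ciita) and 6.74 (H2-Ab1). This took the longest annotated transcript of each gene, and a shorter gene model would give a higher value. Deeper cells could show lower values. RPKM is per transcript length, so that levels of different genes can be set side by side. Levels are given as the mean of log2(RPKM + 1) over the cells of a class in 1 mouse, then as mean ± SD over mice.

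Among these classes, the classical chains and the invariant chain were highest in B cells, next in KCs, then in pDC-like and MoMac/cDC-like cells. All other classes were far lower. The MoMac/cDC-like class pools dendritic with monocyte-derived cells, and its cDC-like cells, described below, stood near B cells. H2-Aa, the alpha chain of I-A, stood at 12.81 ± 0.26 (SD, n = 6 mice) in B cells, with mice between 12.34 and 13.04. In KCs it stood at 10.67 ± 0.59, between 10.15 and 11.77. The mice of the 2 classes did not overlap. In pDC-like cells it was 9.69 ± 1.48 (n = 4 mice with at least 3 cells) and in MoMac/cDC-like cells 8.55 ± 2.26 (n = 6), where ND2 stood at 4.37 and the other mice between 7.68 and 10.62. Erythrocyte-like cells had 6.28 ± 0.32 and hepatocyte-like cells 5.91 ± 1.04 (n = 4 each). Endothelial-like cells had 5.56 ± 1.15, T-cell-like cells 5.19 ± 1.02 and NK-like cells 5.18 ± 0.84 (n = 6 each), and neighbours in this order overlapped. H2-Ab1, the beta chain of I-A, followed with 12.47 ± 0.40 in B cells, 10.21 ± 0.72 in KCs and 8.89 ± 1.77 in MoMac/cDC-like cells (n = 6). H2-Eb1 ran lower in each of these classes, at 11.78 ± 0.47, 9.19 ± 0.47 and 7.38 ± 1.87 (n = 6). Cd74 was the most abundant of the 10 genes, with 14.39 ± 0.18 in B cells, 12.37 ± 0.41 in KCs, 11.05 ± 0.93 in MoMac/cDC-like cells, 7.13 ± 1.05 in endothelial-like cells and 6.74 ± 0.94 in T-cell-like cells (n = 6). Within a mouse Cd74 exceeded the mean of the 3 chains by 2.04 ± 0.33 in B cells, 2.35 ± 0.29 in KCs, 2.77 ± 1.11 in MoMac/cDC-like cells and 1.89 ± 0.34 in endothelial-like cells (n = 6). The order of the classes for Cd74 was thus close to that for the chains.

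The peptide exchange genes followed other orders. H2-DMa was similar in pDC-like (7.80 ± 1.60, n = 4), B (6.82 ± 0.96, n = 6) and MoMac/cDC-like cells (6.74 ± 1.24, n = 6), lower in KCs (5.16 ± 1.22, n = 6) and 2.06 ± 0.74 in endothelial-like cells (n = 6), and the ranges of the first 4 classes overlapped from each to the next. The beta chains parted. H2-DMb1 was highest in MoMac/cDC-like cells (5.34 ± 1.44, n = 6), followed by pDC-like cells (4.03 ± 2.15, n = 4), KCs (3.60 ± 1.18, n = 6) and B cells (3.35 ± 0.61, n = 6), with overlap from each to the next. H2-DMb2 stood at 7.92 ± 0.40 in B cells, with mice between 7.20 and 8.43. In every other class its mean lay between 0.36 (neutrophil-like) and 1.67 (MoMac/cDC-like), and no mouse of any of these reached the lowest B-cell value. H2-Ob behaved likewise, with 7.75 ± 0.99 in B cells (n = 6, HFD2 lowest at 5.80) and 1.48 ± 0.68 in KCs (n = 6). H2-Oa, its partner, had 5.34 ± 1.09 in B cells (n = 6) and 4.07 ± 2.08 in pDC-like cells (n = 4, from 1.35 to 6.41), whose mice overlapped with B cells. Ciita had low class means, at 3.79 ± 1.44 in B cells (6.004 in ND1), 3.30 ± 1.27 in MoMac/cDC-like cells and 1.02 ± 0.65 in KCs (n = 6), and B and MoMac/cDC-like mice overlapped. Among these classes B cells held the highest mean for 8 of the 10 genes, MoMac/cDC-like cells for H2-DMb1 and pDC-like cells for H2-DMa. The 13 cDC-like cells within the MoMac/cDC-like class, described below, exceeded every class mean for H2-Ab1 (13.11), H2-DMa (10.17), H2-DMb1 (9.70) and Ciita (6.83).

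**Figure D1:**
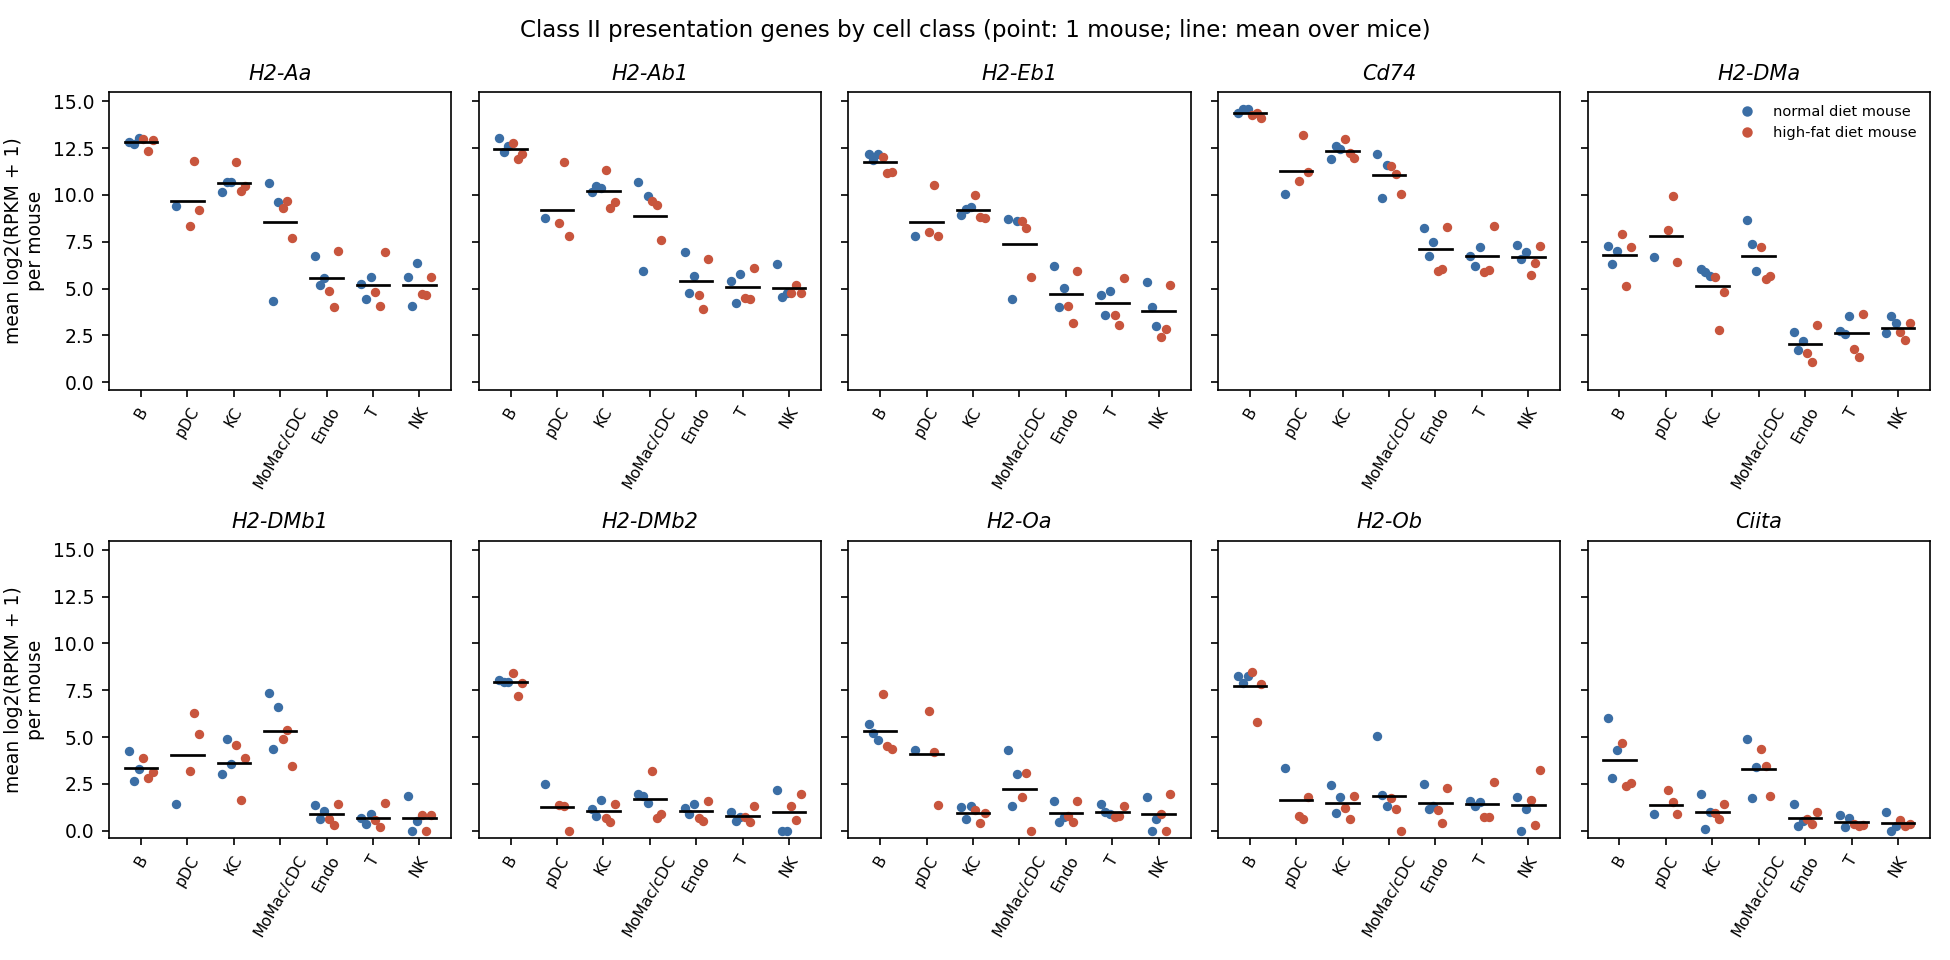
Mean log2(RPKM + 1) of each class II gene (y axis) by cell class (x axis), with 1 point per mouse having at least 3 cells of the class, coloured by diet, and a line at the mean over mice. B cells sit at 12.34 or above for H2-Aa, and H2-DMb2 and H2-Ob reach 5.80 or more in B cells alone among the classes drawn, while H2-DMb1 is highest in MoMac/cDC-like cells.

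Single cells showed the same division. At an RPKM of at least 100, the median B cell held 7 of the 10 genes, the median pDC-like cell 6, and the median KC and MoMac/cDC-like cell 4. The median endothelial-like, T-cell-like and NK-like cell held 1, and 46.3%, 45.9% and 47.6% of the cells of these classes held none. H2-Aa reached this level in 97.5% of B cells, 91.1% of KCs, 54.03% of MoMac/cDC-like cells and 80.4% of pDC-like cells, as means over mice. H2-DMb2 reached it in 78.5% of B cells but in 2.26% of KCs. H2-Ob reached it in 74.5% of B cells and 1.68% of KCs, and neither gene did in any of the 21 pDC-like cells. All 10 genes were at this level together in 7 B cells and 1 MoMac/cDC-like cell, and in no KC.

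**Figure D2:**
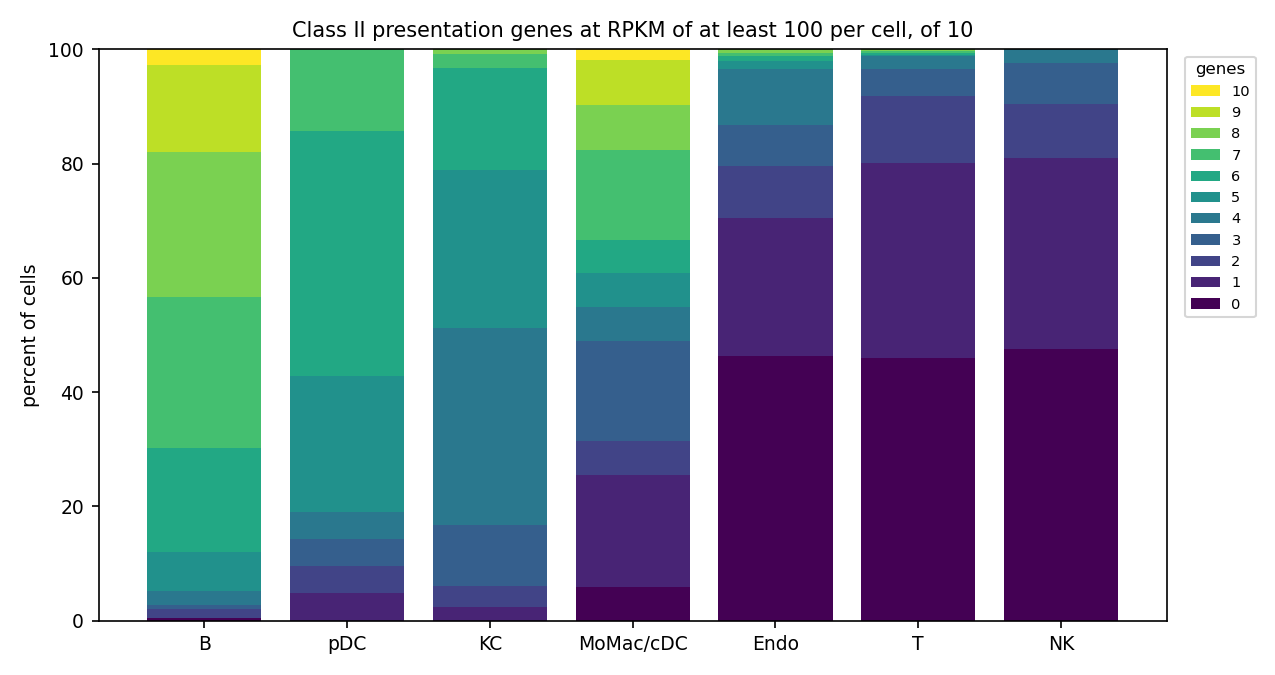
Percent of cells of each class (y axis) by how many of the 10 class II genes they held at an RPKM of at least 100 (colour), pooled over mice. The largest counts are in B cells (median 7), KCs peak around a median of 4, and endothelial-like, T-cell-like and NK-like cells have a median of 1.

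B cells were set against KCs, the large classes with the highest levels of the classical chains and Cd74. All genes but H2-DMb1 were higher in B cells. The fit (limma over 6971 genes, with Benjamini-Hochberg adjusted p under 0.05) called 9 of 10 genes higher and 0 lower, where 8.06% of all genes tested were called higher and 8.75% lower. H2-DMb2 differed by 6.88 ± 0.36 on the log2 scale (SE, adjusted p 8.03e-20) and H2-Ob by 6.27 ± 0.43 (adjusted p 5.38e-16), each higher in B cells in 6 of 6 mice. H2-Oa differed by 4.40 ± 0.50 and Ciita by 2.78 ± 0.35. For the abundant genes the differences were smaller and close to each other, with 2.60 ± 0.58 for H2-Eb1, 2.26 ± 0.55 for H2-Ab1, 2.14 ± 0.62 for H2-Aa and 2.02 ± 0.45 for Cd74 (adjusted p 0.000614). H2-DMa was higher by 1.66 ± 0.52 (adjusted p 0.0193), a call that was lost without HFD1 (1.54) and with RPKM averaged before the logarithm (1.19) or k-means clusters (1.49). H2-Ab1 also lost its call when averaged first (1.44). H2-DMb1 differed by -0.25 ± 0.55 (95% interval -1.37 to 0.87, adjusted p 0.917), with B cells higher in 2 of 6 mice.

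Between B cells and MoMac/cDC-like cells the beta chains of H2-DM went opposite ways. H2-DMb2 was higher in B cells by 6.24 ± 0.36 (adjusted p 5.22e-18) and H2-DMb1 lower by 1.99 ± 0.55 (the difference was -1.99, adjusted p 0.00507), each with the same sign in 6 of 6 mice. In all, 7 of 10 genes were called higher in B cells and 1 lower, where 3.83% of all genes were called higher and 26.5% lower (limma). The median over all 6971 genes was -0.49, and MoMac/cDC-like cells detected more genes than B cells (medians over mice of 3371 and 2473). H2-Ob was higher in B cells by 5.89 ± 0.43, H2-Eb1 by 4.40 ± 0.58, H2-Aa by 4.26 ± 0.62, H2-Ab1 by 3.59 ± 0.55, Cd74 by 3.34 ± 0.45 and H2-Oa by 3.08 ± 0.50. H2-DMa (0.08 ± 0.52, interval -0.97 to 1.14) and Ciita (0.50 ± 0.35, interval -0.20 to 1.20) were not called. When RPKM was averaged before the logarithm, which gives weight to the few cells with the most RNA of a gene, H2-Aa differed by 0.89, H2-Ab1 by 0.48, H2-Eb1 by 0.84, Cd74 by 1.19 and H2-DMb1 by -1.62, none of them called, and 3 of 10 genes were called.

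MoMac/cDC-like cells, a mixed class, and KCs differed in both directions. H2-DMa (1.58 ± 0.52), H2-DMb1 (1.74 ± 0.55), H2-Oa (1.32 ± 0.50) and Ciita (2.28 ± 0.35, adjusted p 1.89e-06) were higher in MoMac/cDC-like cells, and H2-Aa (-2.12 ± 0.62), H2-Eb1 (-1.81 ± 0.58) and Cd74 (-1.32 ± 0.45) were lower. These 4 and 3 calls (limma) stood against 29.1% and 4.48% of all genes, and the median over all genes was 0.61. H2-Ab1 (-1.32 ± 0.55, adjusted p 0.0575), H2-DMb2 (0.64 ± 0.36) and H2-Ob (0.39 ± 0.43) were not called, though H2-Ab1 was called lower in 5 alternatives, among them without ND1 (-1.69) and without HFD2 (-1.63), and H2-DMb2 higher with k-means clusters (0.93). All of these calls but that of Ciita were lost in at least 1 alternative. H2-Aa, H2-Eb1 and Cd74 lost theirs without ND2 (-1.27, -1.21 and -1.03, with 3 of 10 genes called) and with k-means clusters (-1.28, -0.93 and -0.21), and Cd74 also without HFD1 (-1.30). H2-Oa lost its call without ND1 (0.97), ND2 (1.44), ND3 (1.24) or HFD2 (1.05) and in 4 other alternatives. H2-DMb1 lost its call without ND1 (1.22), ND3 (1.48) or HFD2 (1.34), and H2-DMa without ND1 (1.37). With RPKM averaged before the logarithm H2-Aa, H2-Eb1 and Cd74 turned to 0.50, 0.78 and 0.37, H2-DMa and H2-DMb1 stood at 1.04 and 1.15, none of them called, and 2 of 10 genes were called. Ciita was higher in 6 of 6 mice, by 0.46 to 3.38.

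The spread within MoMac/cDC-like cells was wide. Divided by k-means on variable genes other than the class II genes, the class held 13 cDC-like cells from 5 mice, 24 MoMac-like cells from 6 mice and 14 cells in clusters left unnamed, since no marker was among their leading genes. In the cDC-like cells the mean over cells was 12.44 for H2-Aa (median cell 13.48), 13.11 for H2-Ab1, 11.63 for H2-Eb1 and 14.09 for Cd74. The B-cell means over mice were 12.81, 12.47, 11.78 and 14.39, so that cDC-like cells lay above for H2-Ab1 and below for the others. All 4 lay above the KC means. For the 3 chains the median cDC-like cell (13.48, 14.02 and 12.79) lay above the median B cell (13.07, 12.88 and 12.21). H2-DMa (10.17) and H2-DMb1 (9.70) stood above 8 in each of the 13 cells, with lowest values of 8.96 and 8.03. Ciita had a mean of 6.83, H2-Oa of 5.01 and H2-Ob of 4.76, while H2-DMb2 was at 0 in the median cell. In the MoMac-like cells the means were 6.46 for H2-Aa, 9.56 for Cd74, 4.91 for H2-DMa, 3.43 for H2-DMb1 and 1.27 for Ciita, and 7 of 24 cells had H2-Aa at an RPKM of at least 100, against 12 of 13 cDC-like cells. ND2 gave 1 cDC-like and 5 MoMac-like cells, and ND1 gave 4 and 3. The MoMac-like means of H2-DMa, H2-DMb1 and H2-Oa (0.37) lay under the KC means over mice given above (5.16, 3.60 and 0.94) and that of Ciita near it (1.02), so that the higher values of the whole class were in the cDC-like and the unnamed cells, whose means were 6.42, 5.10, 3.80 and 4.04 in the same order for the unnamed. These groups were made from 51 cells and were not tested.

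Within each mouse the beta chains stood in opposite order in B cells and in KCs and MoMac/cDC-like cells. H2-DMb2 minus H2-DMb1 was 4.57 ± 0.47 in B cells (n = 6, from 3.83 to 5.25), -2.56 ± 1.18 in KCs (from -4.09 to -1.19) and -3.66 ± 1.59 in MoMac/cDC-like cells (from -5.41 to -1.68). B cells lay above 0 in 6 of 6 mice and KCs and MoMac/cDC-like cells in 0 of 6. In single cells at an RPKM of at least 10, 43.03% of B cells had H2-DMb2 without H2-DMb1, 1.20% had H2-DMb1 alone and 43.8% had both. Of KCs, 10% had H2-DMb2 alone, 38.8% H2-DMb1 alone and 6.4% both. These genes are near copies that lie side by side, and 22.65% of the 1629 windows of 50 bases in H2-DMb1 transcripts also occur in H2-DMb2 (21.19% of its windows), so reads from the shared part do not map uniquely. No other pair of the H2 genes compared shared such a window.

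The mean of H2-Oa and H2-Ob minus the mean of the 3 H2-DM genes was 0.52 ± 0.44 in B cells (n = 6, from 0.01 to 1.15), -2.05 ± 0.69 in KCs and -2.52 ± 0.85 in MoMac/cDC-like cells. Every B-cell value was above every value of KCs and MoMac/cDC-like cells. In endothelial-like and T-cell-like cells, where all 5 genes were low, it was -0.13 ± 0.28 and -0.15 ± 0.24 (n = 6). The B-cell value includes the low H2-DMb1, and H2-Oa minus H2-DMa, the alpha chains, was -1.48 ± 0.88 in B cells, above 0 in 0 of 6 mice. In pDC-like cells H2-O minus H2-DM was -1.52 ± 1.66 (n = 4), which spanned 0. At an RPKM of at least 10, both genes of H2-O were present in 52.2% of B cells, 4.8% of KCs, 15.7% of MoMac/cDC-like cells and 4.76% of pDC-like cells. H2-Oa without H2-Ob was present in 47.6% of pDC-like and 6.37% of B cells. Ciita at this level was present in 47.4% of B cells, 43.1% of MoMac/cDC-like cells and 11.2% of KCs, whereas H2-Aa was present in 99.6% of KCs.

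**Figure D3:**
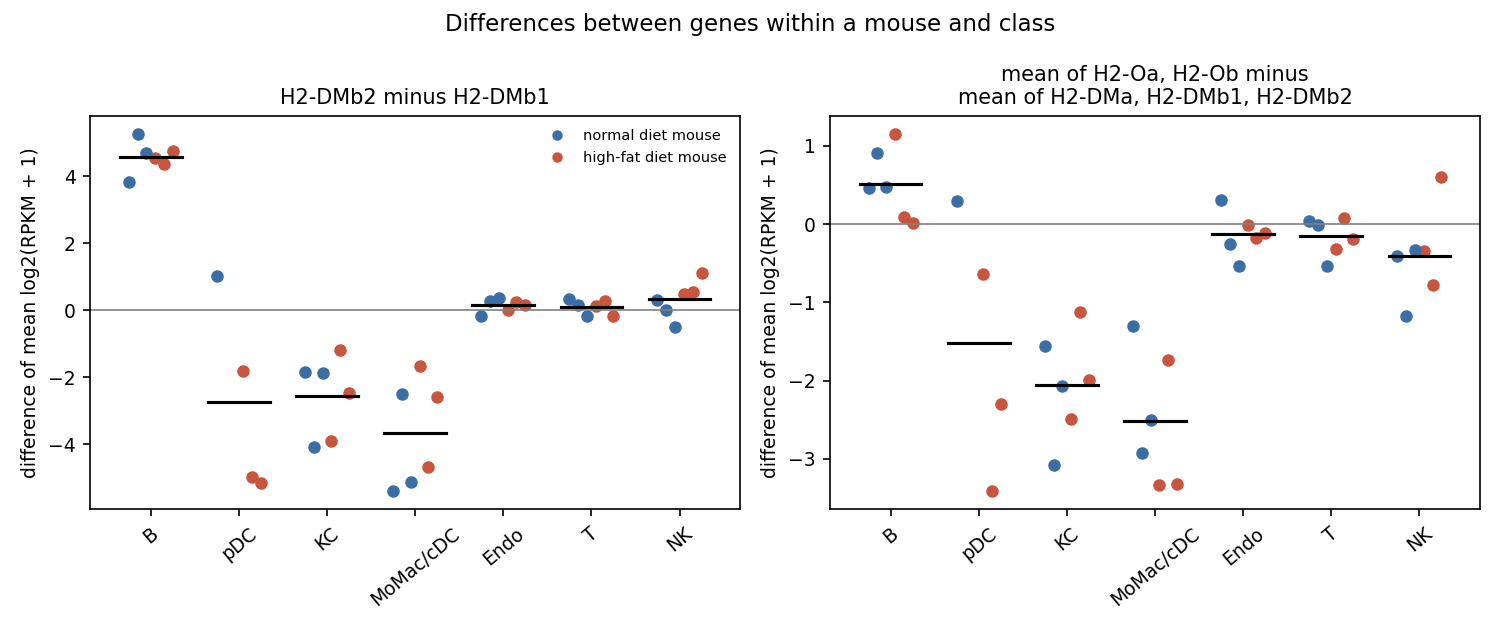
Difference of mean log2(RPKM + 1) between genes of the same mouse and class (y axis) by cell class (x axis), with 1 point per mouse coloured by diet and a line at the mean. On the left (H2-DMb2 minus H2-DMb1) all B-cell points lie at 3.83 or above and all KC and MoMac/cDC-like points at -1.19 or below, and on the right (H2-O minus H2-DM) B cells lie just above 0.

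Against endothelial-like cells, KCs were higher in 6 of 10 genes and lower in none, where 6.58% of all genes were called higher and 12.8% lower (limma). The differences were 5.24 ± 0.45 for Cd74 (adjusted p 3.41e-13), 5.11 ± 0.62 for H2-Aa, 4.78 ± 0.55 for H2-Ab1, 4.45 ± 0.58 for H2-Eb1, 3.09 ± 0.52 for H2-DMa and 2.70 ± 0.55 for H2-DMb1, each positive in 6 of 6 mice. H2-DMb2, H2-Oa and H2-Ob differed by between -0.02 and 0.02 and Ciita by 0.31 ± 0.35, none of them called. The intervals of these 4 genes reached at most 1.02 in either direction.

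Endothelial-like cells were then compared with T cells, which in the mouse do not make class II, as a background. None of the 10 genes was called in limma, where 13.3% of all genes were called higher and 13.3% lower, and 0 of 10 had an unadjusted p under 0.05. H2-Aa differed by 0.36 ± 0.62 (interval -0.88 to 1.61), H2-Ab1 by 0.35 ± 0.55, H2-Eb1 by 0.51 ± 0.58 and Cd74 by 0.39 ± 0.45. H2-Eb1 was higher in endothelial-like cells in 6 of 6 mice (by 0.11 to 1.55). Cd74, H2-DMb1, H2-DMb2 and Ciita were higher in 5 of 6, and H2-Aa and H2-Ab1 in 4 of 6. H2-Oa was higher in 3 of 6 and H2-Ob in 2 of 6. H2-DMa differed by -0.55 ± 0.52, with endothelial-like cells lower in 6 of 6 mice. That gene alone was called, as lower in endothelial-like cells, when only these 2 classes were fitted and when RPKM was averaged before the logarithm (-2.04). In both classes nearly every cell had some H2-Aa at an RPKM of at least 1, 94.9% of endothelial-like and 92.7% of T-cell-like cells. At an RPKM of at least 100 the mean share over mice was 27.2% (from 6% to 56.8%) and 15.01% (from 3.51% to 45.5%), and HFD3 was the highest mouse in both classes.

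In mean level, transcripts that define other classes lay at differences of similar size below their own class. H2-Aa in T-cell-like cells differed from B cells by -7.61 ± 0.89 and Cd74 by -7.65 ± 1.02 (SD, n = 6). Cd79b, a chain of the B-cell receptor, differed by -8.21 ± 0.71 between the same classes, and was at an RPKM of at least 1 in 72.8% of T-cell-like cells. C1qa, a complement gene of KCs, differed by -8.63 ± 1.38 between T-cell-like cells and KCs, and Clec4g, an endothelial lectin, by -7.12 ± 0.54 between T-cell-like and endothelial-like cells. In endothelial-like cells H2-Aa lay at -7.25 ± 1.02 from B cells, Cd79b at -8.04 ± 0.74 from B cells and C1qa at -8.05 ± 1.71 from KCs (n = 6). KCs differed from this pattern, with H2-Aa at -2.14 ± 0.52 and Cd79b at -7.70 ± 0.76 from B cells. The shares of cells at an RPKM of at least 100 were less alike. In endothelial-like cells they were, as means over mice, 27.2% for H2-Aa, 21.6% for C1qa, 7.22% for Cd79b and 3.63% for Cd3e. In T-cell-like cells they were 15.01% for H2-Aa, 9.47% for C1qa, 5.12% for Clec4g and 3.77% for Cd79b. A difference cannot exceed the own-class level, which was 12.81 for H2-Aa, 12.60 for C1qa, 11.45 for Clec4g, 11.26 for Cd79b and 9.61 for Cd3e. The part of RNA from other cells in the low class II levels was not tested.

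**Figure D4:**
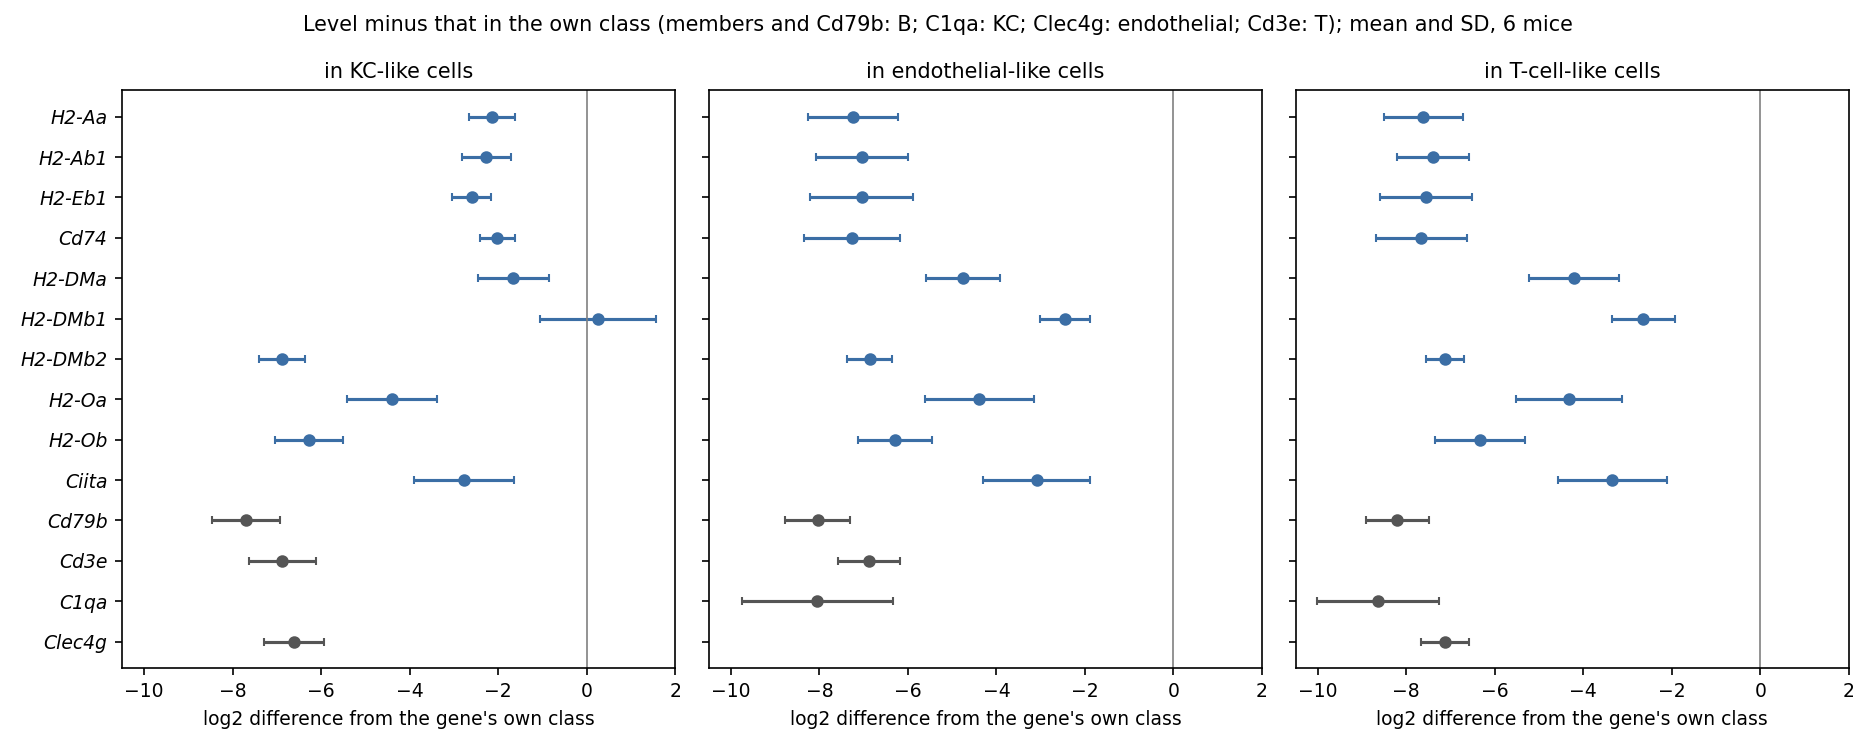
Difference of mean log2(RPKM + 1) from the class in which a gene is taken as its own (x axis), for the class II genes (blue) and 4 class-defining genes (grey), in KC-like, endothelial-like and T-cell-like cells; points are means and bars SD over 6 mice. In T-cell-like and endothelial-like cells H2-Aa and Cd74 lie between -7.25 and -7.65, beside Cd79b, Cd3e, C1qa and Clec4g outside their classes, while in KCs they lie at -2.14 and -2.02.

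Among endothelial-like cells the class II level went with depth and with transcripts that define other classes. The 3 clusters that made up the class had H2-Aa means of 6.28 ± 0.94 (31.5% of the class, led by Sparc and Ptprb), 5.57 ± 1.41 (46.5%, led by Gpihbp1) and 4.61 ± 0.52 (22.03%, led by Ramp2), over 6 mice each. Their median estimated reads were 58549, 130373 and 291879 in the same order, and C1qa stood at 5.60, 4.37 and 3.72 and Alb, the hepatocyte albumin, at 9.17, 6.76 and 5.92. Cd79b stood at 3.69, 3.23 and 2.57 and Cd3e, a chain of the T-cell receptor complex, at 3.45, 2.49 and 2.07. H2-Aa was at an RPKM of at least 100 in 53.1%, 16.6% and 3% of these cells, and C1qa in 39.9%, 11.4% and 5%. When the cells of a mouse were divided at their median number of reads, the shallower ones had more H2-Aa by 1.41 ± 0.59, more Cd74 by 1.64 ± 0.45 and more C1qa by 1.12 ± 0.45, each in 6 of 6 mice, and less Clec4g (-0.93 ± 0.32). They also had more Cd3e by 0.88 ± 0.69 (6 of 6 mice) and more Cd79b by 0.86 ± 1.23 (5 of 6 mice). In KCs the same division gave less H2-Aa in the shallower cells (-0.76 ± 0.66) and less H2-Ab1 (-0.97 ± 0.51, lower in 6 of 6 mice), and in B cells H2-Aa differed by 0.09 ± 0.54. H2-DMa and H2-DMb1 were also less abundant in the shallower KCs (-1.84 ± 0.97 and -1.68 ± 0.79), in 6 of 6 mice. Cells with core markers of another class, 22 of 454 endothelial-like and 23 of 250 KC-like cells, were left out in an alternative that kept 6 of 10 genes called between KCs and endothelial-like cells. The part of depth and of transcripts from other classes in the endothelial values was not tested.

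KCs fell into 2 clusters that both carried KC markers. In the smaller, of 65 cells, H2-Aa stood at 11.28 ± 0.92, H2-DMa at 6.51 ± 1.35 and H2-DMb1 at 4.80 ± 1.65. In the larger, with 74% of the class, they stood at 10.45 ± 0.67, 4.64 ± 1.22 and 3.10 ± 1.02 (n = 6 mice each). Timd4, a marker of long-resident KCs, was 6.09 in the smaller and 4.55 in the larger, and the median estimated reads were 184411 and 74521. H2-DMb2, H2-Oa, H2-Ob and Ciita lay between 0.85 and 1.54 in both clusters. These clusters were not tested against each other.

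The rest of the pathway was described by 4 lists. Many of their genes could take part in the clustering, so the counts between classes (limma) are a description, to be read against the shares of all genes called: 8.06% higher and 8.75% lower for B cells against KCs, 3.83% and 26.5% for B cells against MoMac/cDC-like cells, 29.1% and 4.48% for MoMac/cDC-like cells against KCs, 6.58% and 12.8% for KCs against endothelial-like cells, and 13.3% each way for endothelial-like against T-cell-like cells. Of 13 genes of class II processing and turnover, 12 were tested, and between B cells and KCs 3 were higher in B cells and 8 lower, with a median of -2.55 against 0.05 over all genes. Higher were March1 (1.34 ± 0.29), a ubiquitin ligase that removes class II from the surface, Cd83 (1.03 ± 0.28), which opposes it, and H2-Eb2 (1.59 ± 0.19). Lower were the lysosomal proteases Ctsb (-6.29 ± 0.38), Lgmn (-5.22 ± 0.40), Ctss (-3.58 ± 0.50), which cleaves the invariant chain, Ctsl, Ctsd and Ctsh, the protease inhibitor Cst3 (-4.48 ± 0.64) and the thiol reductase Ifi30 (-2.56 ± 0.57). Between KCs and endothelial-like cells 8 of the 12 were higher in KCs, Ctss by 7.07 ± 0.50 and Ifi30 by 5.63 ± 0.57 among them, and Ctsl was lower (-2.79 ± 0.38). Between MoMac/cDC-like cells and KCs 1 was higher (March1, 0.76 ± 0.29) and 5 were lower, and between B cells and MoMac/cDC-like cells 1 was higher (H2-Eb2) and 5 lower. Between endothelial-like and T-cell-like cells 4 were higher and none lower, with Ctsl at 5.93 ± 0.38.

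Of 10 regulators of class II genes 7 were tested, and Rfx5, Rfxap and Nfya fell under the level limit. Irf4 was higher in B cells than in KCs (1.34 ± 0.22) and Spi1, the myeloid factor PU.1, lower (-3.36 ± 0.47). MoMac/cDC-like cells exceeded KCs in 5 of 7, with Spi1 at 2.06 ± 0.47, Irf8 at 1.96 ± 0.53, Nfyc at 0.94 ± 0.37, Irf4 at 0.92 ± 0.22 and Rfxank at 0.85 ± 0.34, against an all-gene median of 0.61 and 29.1% of all genes called higher. Spi1 and Irf8 were higher in KCs than in endothelial-like cells, Spi1 was lower in B cells than in MoMac/cDC-like cells, and none of the 7 was called between endothelial-like and T-cell-like cells. Of 6 costimulatory and inhibitory ligands 5 were tested, and Cd40 (1.41 ± 0.24) and Icosl (2.24 ± 0.34) were higher and Cd86 (-1.67 ± 0.28) lower in B cells than in KCs. Cd40 and Icosl were also higher in MoMac/cDC-like cells than in KCs, Cd86 was lower in B cells than in MoMac/cDC-like cells and higher in KCs than in endothelial-like cells, and Pdcd1lg2 was lower in endothelial-like than in T-cell-like cells. The 11 interferon gamma and class I genes were all tested. Between B cells and KCs 0 of 11 were called (limma), and between KCs and endothelial-like cells 1 was, H2-D1 (0.83 ± 0.29). Between endothelial-like and T-cell-like cells 9 of 11 were lower in endothelial-like cells, Tap1 by 2.94 ± 0.53 and H2-K1 by 2.19 ± 0.24 (differences of -2.94 and -2.19). Between MoMac/cDC-like cells and KCs 3 of 11 were higher (Irf1, Tap1, Psmb8), near the 29.1% of all genes, and between B cells and MoMac/cDC-like cells 3 of 11 were lower (Tapbp, Psmb8, Psmb9), near the 26.5% of all genes.

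The genes whose levels ran most like the mean of H2-Aa, H2-Ab1, H2-Eb1 and Cd74 were ranked by Pearson's r over 52 class and mouse means of 10 classes, which share mice and libraries. Mir5107 came first (r = 0.955), a microRNA annotated at 60812076 to 60812163 on chromosome 18, within Cd74 (60803849 to 60812652), so that reads of the host transcript cannot be told from its own. It was followed by March1 (0.787), Unc93b1 (0.769), which carries endosomal Toll-like receptors, Ctsh (0.767), Ifi30 (0.752), Btk (0.736), Ly86 (0.736), Ctss (0.727), Snn (0.724) and Bank1 (0.723). Of the other members H2-DMa had r = 0.822, H2-DMb1 0.766, Ciita 0.740, H2-Oa 0.733, H2-DMb2 0.706 and H2-Ob 0.690 on the same points. Ciita lies apart from the other genes, on chromosome 16 (10480014 to 10531064).

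The high-fat diet was compared with the normal diet within 5 classes, as 3 mice against 3. No class II gene was called in any class. Of 50 gene and class values 43 passed the limit on low levels and were tested with limma, 0 were called and 1 had an unadjusted p under 0.05. Over all genes 0.03% were called in KCs, which was 1 gene of 3335, Serpina1e, and 0% in B cells, MoMac/cDC-like, endothelial-like and T-cell-like cells. An exact two-sided permutation test of 3 against 3 cannot go below 0.1.

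In B cells H2-Aa stood at 12.85, 12.73 and 13.04 on the normal diet and at 12.98, 12.34 and 12.92 on the high-fat diet. The groups overlapped, and the difference was -0.13 ± 0.49 (SE, 95% interval -1.15 to 0.89). Cd74 in B cells was 14.40, 14.58 and 14.59 on the normal diet and 14.29, 14.37 and 14.13 on the high-fat diet. These did not overlap, but the difference was small, -0.26 ± 0.48 with an interval of -1.27 to 0.74, close to the all-gene median of -0.29 in B cells. Groups did not overlap for 8.92% of all genes in B cells, and for 1 of 10 class II genes. Ciita in B cells varied most, with 6.004, 2.81 and 4.33 on the normal and 4.68, 2.37 and 2.57 on the high-fat diet (-1.17 ± 0.74).

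In KCs H2-Aa was 10.15, 10.71 and 10.69 on the normal and 11.77, 10.21 and 10.46 on the high-fat diet, which overlapped and differed by 0.30 ± 0.53 (interval -0.84 to 1.44). H2-DMa in KCs was 6.06, 5.90 and 5.69 on the normal and 5.64, 2.81 and 4.83 on the high-fat diet. The high-fat values all lay below, HFD2 furthest, and the difference was -1.46 ± 0.65 (limma p 0.0414, adjusted p 0.9996, interval -2.85 to -0.07, exact permutation p 0.1). Groups did not overlap for 6.21% of genes in KCs, and for 1 of the 9 class II genes tested. KCs of HFD2 were the shallowest (median 63482 estimated reads), and within every mouse shallower KCs had less H2-DMa, as given above. KCs of HFD1 (159636) and HFD3 (129469) were deeper than those of the 3 mice on the normal diet (69758 to 86571). The part of depth in this difference was not tested. The change of H2-DMa in KCs minus that in B cells was -1.36 ± 0.45 (limma, unadjusted p 0.00795, adjusted p 0.9997), and 0 of the 10 class II genes tested were called for that difference, against 0% of all genes. Between KCs and endothelial-like cells it was -1.16 ± 0.58, and 0 of 9 were called, against 0% of all genes.

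In endothelial-like cells all 7 genes tested had lower means on the high-fat diet, from -0.74 ± 0.57 for Cd74 to -0.23 ± 0.45 for H2-DMb2, none called, and the all-gene median was -0.14. H2-Aa there was 6.76, 5.20 and 5.55 on the normal and 4.85, 4.004 and 7.003 on the high-fat diet, so that ND1 and HFD3 were the high mice. In T-cell-like cells H2-Aa was 5.24, 4.44 and 5.62 on the normal and 4.82, 4.09 and 6.96 on the high-fat diet, with HFD3 again high (0.19 ± 0.63). In MoMac/cDC-like cells, with 5 to 13 cells a mouse, the largest differences were in H2-Ob (-1.79 ± 0.94) and H2-DMb1 (-1.54 ± 0.92), and intervals there were up to 4.01 wide. The make-up of this class differed between mice, with 4 cDC-like of 8 cells in ND1, where H2-Ob was 5.07, and 0 of 5 in HFD3, where it was 0, and its part in these differences was not tested. Groups did not overlap for 5.92% of genes in endothelial-like, 7.65% in T-cell-like and 7.03% in MoMac/cDC-like cells, and for 0 class II genes in each. Over the 43 values the differences ran from -1.79 to 0.68 and the narrowest interval was 1.88 wide, so that differences inside these intervals could not be resolved with 3 mice a diet. The 4 lists gave 0 called genes in each of the 5 diet comparisons (limma).

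**Figure D5:**
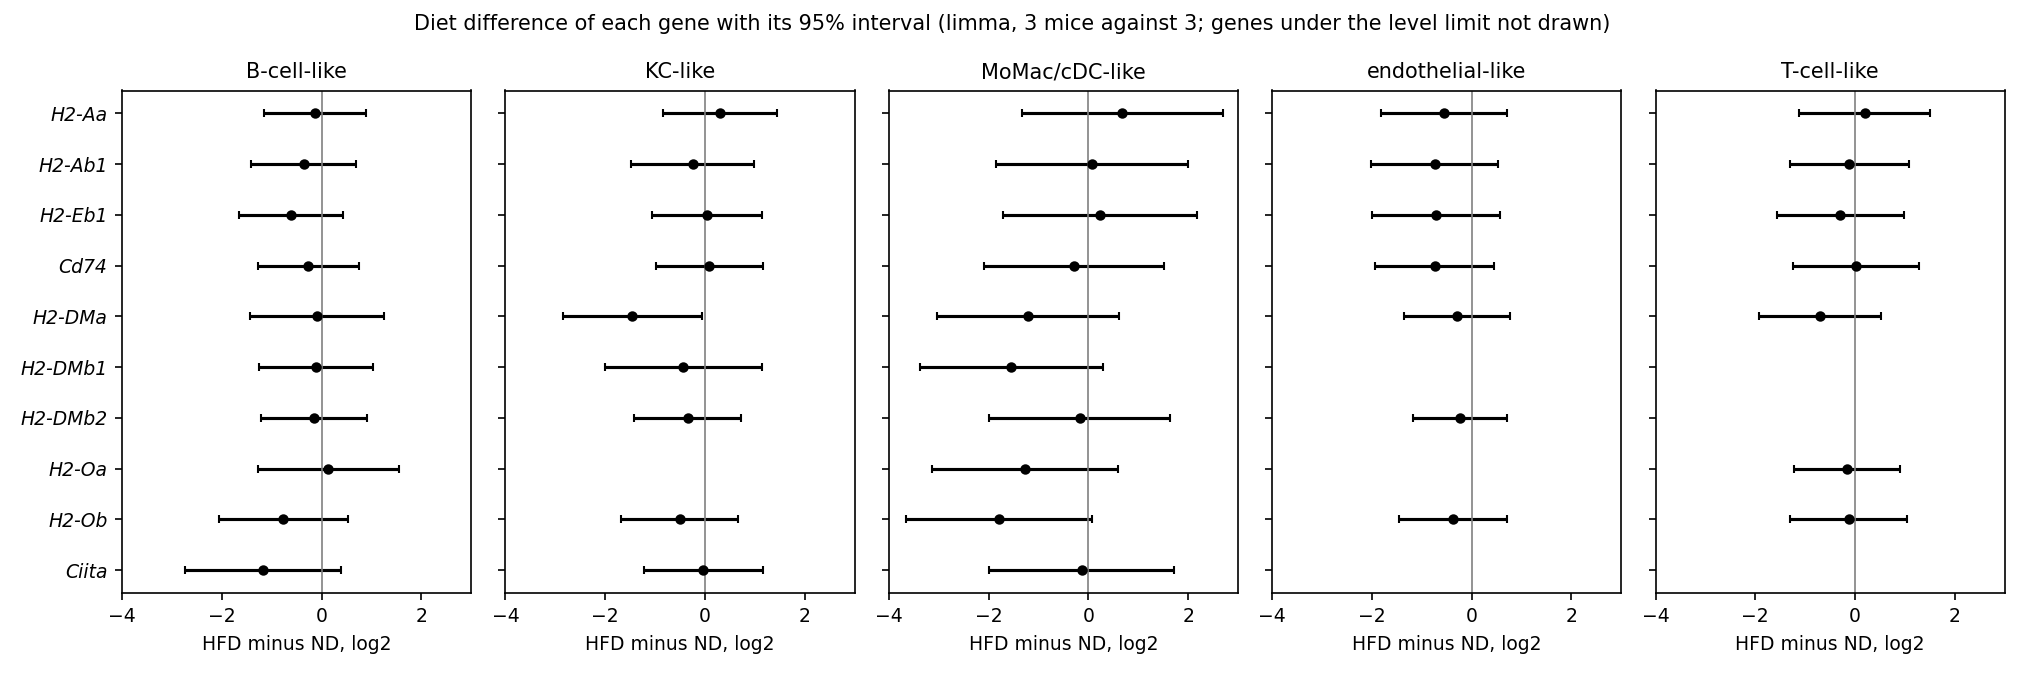
Difference between diets (x axis, high-fat minus normal, log2) for each class II gene (y axis) in 5 cell classes; points are limma estimates from 3 mice against 3, and bars are 95% intervals. All intervals but that of H2-DMa in KCs (-2.85 to -0.07) include 0, and genes under the level limit have no point.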

How the data were processed

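Liver NPCs of 6 mice were sorted as single live cells and sequenced with Smart-seq2. The authors used STAR and mm10, computed RPKM on RefSeq genes from reads with 1 alignment, removed low-quality cells and doublets (Scrublet), and deposited RPKM per gene and cell (14915 genes, 1470 cells). Raw counts were not used here. RPKM removes depth but leaves low values unsure, and multi-copy genes lose reads. Reads per cell were estimated from 1551 genes with 1 transcript, with the most frequent product of RPKM and transcript length taken as 1 read.

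Here cells were z-scored within mouse on 1000 variable genes (20 principal components, spectral clustering, 15 neighbours, the fewest of 12 to 25 clusters that named 10 classes: 15) and classes needed at least 3 detected markers. Log2(RPKM + 1) was averaged per mouse and class (at least 3 cells). Classes were compared with limma 3.58.1 (R 4.3.3), with mouse as a block and no trend, and diets as 3 mice against 3, over genes with a mean of at least 1, with Benjamini-Hochberg adjustment over all genes tested at 0.05. The scripts were tested on simulated data. All 10 genes and the 4 lists were named by rule; members and lists were chosen with earlier results of these data known. That the mice are separate animals comes from the study's methods. Versions were Python 3.11.15, scikit-learn 1.9.0 and numpy 2.4.6. Mice of the diets share only a number in the labels and were not treated as pairs. Deviations of mice with the same number gave r from -0.181 to 0.205 (15 comparisons, 5 over 0.1). Those of mice with different numbers gave r from -0.220 to 0.191. With 3 mice a diet these values cannot exclude a pairing.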

Additional observations from a re-analysis of the deposited data

Results flagged for a closer look

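In 6 of 100 gene and class groups of 4 to 6 mice, 1 mouse stood apart from the others by Dixon's test, and chance marks about 1 group in 20. H2-Ob in B cells was 5.80 in HFD2 and between 7.83 and 8.48 in the other mice. H2-Aa in KCs was 11.77 in HFD1, against 10.15 to 10.71. H2-Ab1 in NK-like cells was 6.29 in ND1, against 4.55 to 5.20. H2-Eb1 in pDC-like cells was 10.56 in HFD2, against 7.81 to 8.03 in 3 mice. H2-DMb2 was 1.74 in erythrocyte-like cells of ND1, against 0.37 to 0.43, and 1.43 in neutrophil-like cells of HFD2, against 0 in the others, each from few cells at a level near that of 1 read. The causes were not tested.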

How the results depend on the processing

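Counts of class II genes called kept within 1.5 times the main count in all but 5 cases. Averaging RPKM before the logarithm gave 3 called genes for B cells against MoMac/cDC-like cells (main 8), 2 for MoMac/cDC-like cells against KCs (main 7) and 1 for endothelial-like against T-cell-like cells (main 0); fitting only these 2 classes also gave 1. Leaving out 1 mouse gave 3 to 7 for MoMac/cDC-like cells against KCs, 3 without ND2. Under averaging first, H2-Aa (0.50), H2-Eb1 (0.78) and Cd74 (0.37) of that comparison changed sign without being called. Without a change of sign, 13 single values lost their call in at least 1 alternative (30 cases in all) and 3 gained one (8 cases). Detection at an RPKM of at least 100, chosen after seeing the data, put B cells first for 7 genes in share of cells, against 4 at an RPKM of at least 1. The causes were not tested. Over all genes, calls for B cells against KCs ranged from 939 to 2296 (main 1172), for B cells against MoMac/cDC-like cells from 1153 to 2760 (main 2112), for MoMac/cDC-like cells against KCs from 782 to 3246 (main 2340), for KCs against endothelial-like cells from 1156 to 2568 (main 1348) and for endothelial-like against T-cell-like cells from 1590 to 3358 (main 1852). Without HFD3, 34 genes were called between diets in endothelial-like cells (main 0). Leaving out cells with 2 markers of another class at an RPKM of at least 10 would remove 95.59% to 100% of each class and gave no value. Leaving out instead cells with core markers of another class was added after seeing the data and kept every count of class II genes within 1.5 times.

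With the replicate number as a block, 0 class II genes were called in each of the 5 diet comparisons, as without it. The labels do not say whether the numbers pair the mice.

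Depth limits genes near 1 read in most classes (Ciita, H2-Oa, H2-DMb1), and 3 mice a diet leave wide intervals. p-values of the diet comparisons cover the spread between these 6 animals. Classes were compared in 1 fit with mouse as a block, which shared 1 estimate of spread per gene over all classes. The SE of H2-Aa was thus 0.62 in every class comparison. Its per-mouse difference from B cells had an SD of 0.52 for KCs and 2.26 for MoMac/cDC-like cells. The class p-values do not reflect such unequal spread.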
